A study of Mus musculus with 8 samples.

Results

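The regions described here are stretches of the mouse genome that carried a called peak of H3K27ac in both adult adrenal glands, female and male, and in no younger gland. H3K27ac is histone H3 acetylated at lysine 27. They were found by merging the broad peaks of 7 lists on chromosomes 1 to 19 into 147792 union regions. A region was kept when it overlapped a peak of both 12-week lists by at least 1 base and no peak of the other 5 lists. This left 3972 regions, 2.69% of all union regions and 9.3% of the 42715 regions called in both 12-week lists. They are called 12-week-only regions below, after the rule. The members were chosen by where peaks were called, so the peak calls of the 7 lists and the peak values at 12 weeks are given as a description, and a region without a called peak in a younger gland may still be acetylated there.

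The study used ChIP-seq, the sequencing of DNA bound to an immunoprecipitated chromatin mark, on whole adrenals of the inbred mouse strain C57BL/6J at several ages and in both sexes. Each library came from 1 pool of glands: 30 glands at E18.5, of undetermined sex, 22 each from P1 females and P1 males (postnatal day 1), 12 each from 2-week females and males, and 6 each from 12-week females and males. There was 1 library for each age and sex, so no group has a replicate. No test between ages was made, since the members were chosen by the same peak calls. The 12-week lists were the longest by covered length, at 129 Mb (female) and 101 Mb (male) on chromosomes 1 to 19, against 55.4 to 91.2 Mb in the other 5 lists. The files hold peaks without read counts, so the depth of the libraries is unknown, and its part in what was called at 12 weeks was not tested. Because whole glands were pooled, more cells of a type and more acetylation per cell cannot be told apart. The tissue label was checked against gene lists: of 17 steroid-synthesis genes, 15 to 17 had a peak within 1 kb of a transcription start in every list, while at most 3 of 8 liver genes and 2 of 8 kidney genes did in any list. Of all 20807 protein-coding genes on chromosomes 1 to 19, 12498 to 14902 had such a peak, depending on the list.

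H3K27ac is laid down at active promoters and enhancers, and enhancers often lie in introns or between genes, far from the start they act on. The adrenal cortex makes aldosterone in its outer zone, the zona glomerulosa, under angiotensin II and potassium, and corticosterone in the zona fasciculata under ACTH, which acts through cyclic AMP. The mouse gland also has an inner X-zone that derives from the fetal cortex and is lost in males around puberty and in females later, and a medulla of chromaffin cells that release adrenaline and noradrenaline. NR5A1 (SF-1) is the nuclear receptor that sets the identity of steroid-producing cells, and AP-1 is a family of factors activated by many signals, ACTH among them.

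The following 7 windows of 200 bases show the sequence under the regions that the results return to. Pik3c2g, Srd5a2 and Plcb1 are shown because their loci are mapped further on, Btbd11 because it is the member with the highest lower percentile in the 12-week lists, Pde4b because it is the strongest member among the ACTH and cyclic AMP genes, and Pde8b and Prkaca as members of that list chosen because their windows hold a motif. Of the 9 windows of that list 6 held none of the motifs searched. Where the bases covered by both 12-week lists held an NR5A motif, the window was centred on it, and otherwise on the middle of those bases (Srd5a2 apart), so an NR5A motif in a window follows from how the window was placed. Capitals mark an AP-1 motif (TGANTCA) or an NR5A motif (CAAGGTCA, or TGACCTTG where it lies on the other strand). Positions are on GRCm38 and sequences are from the RefSeq assembly of that build, 5′ to 3′, on the plus strand except for Srd5a2.
Pik3c2g promoter, chr6:139736666-139736865, plus strand: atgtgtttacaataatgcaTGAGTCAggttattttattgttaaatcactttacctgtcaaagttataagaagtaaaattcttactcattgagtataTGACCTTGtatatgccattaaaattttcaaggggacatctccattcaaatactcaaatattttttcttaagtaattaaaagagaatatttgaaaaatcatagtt
Srd5a2 upstream of its GENCODE start, chr17:74047917-74048116, minus strand: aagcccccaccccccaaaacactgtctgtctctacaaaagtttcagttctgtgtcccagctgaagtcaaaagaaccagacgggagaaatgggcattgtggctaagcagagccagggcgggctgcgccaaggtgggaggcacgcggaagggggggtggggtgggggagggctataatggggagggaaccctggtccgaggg
Plcb1 intron, chr2:135181821-135182020, plus strand: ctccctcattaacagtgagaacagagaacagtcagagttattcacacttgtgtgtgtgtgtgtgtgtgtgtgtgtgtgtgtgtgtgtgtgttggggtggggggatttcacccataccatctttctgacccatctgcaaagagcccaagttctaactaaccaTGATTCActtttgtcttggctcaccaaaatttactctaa
Btbd11 intron, chr10:85510307-85510506, plus strand: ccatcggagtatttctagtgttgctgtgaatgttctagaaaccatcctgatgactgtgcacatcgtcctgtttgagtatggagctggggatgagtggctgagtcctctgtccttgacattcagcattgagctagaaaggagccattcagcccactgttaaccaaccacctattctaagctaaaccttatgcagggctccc
Pde4b intron, chr4:102104928-102105127, plus strand: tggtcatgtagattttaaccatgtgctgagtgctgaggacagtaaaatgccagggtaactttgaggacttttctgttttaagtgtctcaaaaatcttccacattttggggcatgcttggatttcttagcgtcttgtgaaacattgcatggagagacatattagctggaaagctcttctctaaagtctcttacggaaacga
Pde8b intron, chr13:95039892-95040091, plus strand: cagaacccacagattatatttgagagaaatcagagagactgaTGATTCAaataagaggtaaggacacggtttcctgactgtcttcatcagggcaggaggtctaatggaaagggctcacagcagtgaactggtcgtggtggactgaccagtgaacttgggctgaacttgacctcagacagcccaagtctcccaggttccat
Prkaca intron, chr8:83992672-83992871, plus strand: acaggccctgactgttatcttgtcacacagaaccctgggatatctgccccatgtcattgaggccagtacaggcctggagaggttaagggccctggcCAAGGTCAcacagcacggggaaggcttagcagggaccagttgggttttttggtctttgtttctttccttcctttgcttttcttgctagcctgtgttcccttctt
The windows lie in bases covered by both 12-week lists, except the Prkaca and Srd5a2 windows, which may reach past them. The Pik3c2g window held both motifs, the Plcb1 and Pde8b windows an AP-1 motif, the Prkaca window an NR5A motif, and the Btbd11, Pde4b and Srd5a2 windows none of the 10 motifs searched. Neither Pik3c2g nor Prkaca had an NR5A motif in the 300-base window used for the shares given further on. A match is a description of the letters, and its absence says only that these letters are not in the window.

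Most 12-week-only regions were narrow and weak for their lists. The median width was 1061 bp (quartiles 724 and 1560.2 bp, range 204 to 7360 bp), and together they covered 4.90 Mb. The −log10 q of a peak is the authors' value for how unlikely the enrichment was under the background of that library, and it was the peak's own value in its own list. Its median was 2.13 in the 12-week female list (range 1.17 to 9.68) and 1.51 in the 12-week male list (range 1.08 to 6.67). The median fold enrichment over the caller's background was 2.80 in the female list and 2.71 in the male list. As percentiles of −log10 q within each whole list, the medians were 33.6 (female) and 25.5 (male), against 69.7 and 61.0 for the other 38743 regions called in both 12-week lists. A −log10 q of at least 5 was reached by 102 members in the female list, by 7 in the male list and by 3 in both, the regions at Btbd11, Efhb and Gfra2. At the other end, 1452 members (36.6%) were under 2 in both lists. These values belong to the same peaks that chose the members and are a description.

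**Figure D1:**
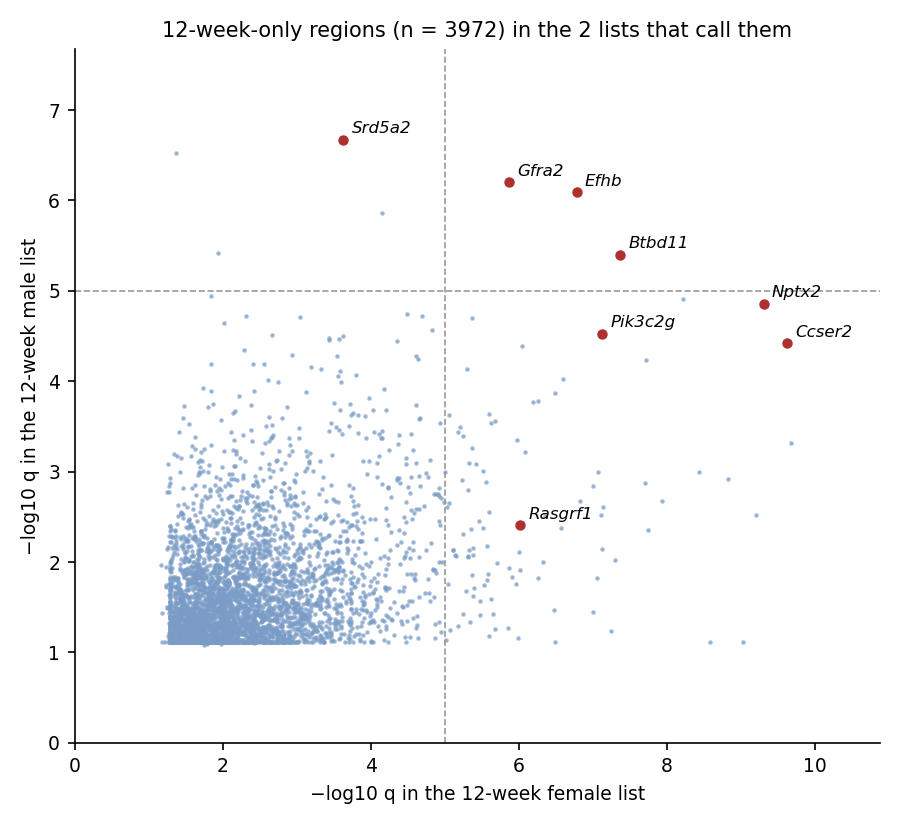
Each point is 1 of the 3972 regions, with its −log10 q in the 12-week female list (x axis) and in the 12-week male list (y axis); dashed lines stand at 5 and red points carry the name of the nearest gene. Most points crowd near the lower limit of both lists, and only 3 lie beyond 5 on both axes.

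The 2 lists ranked the members alike only in part. Across the 3972 regions the percentiles had a Spearman rho of 0.274 and the log2 fold enrichments a Pearson r of 0.330; both are across regions of the same 2 libraries, which are not independent replicates. The percentile was higher in the female list for 2452 members and in the male list for 1520. Both percentiles were at least 50 in 271 members and both under 25 in 847. The bases covered by both lists were fewer than the region as a whole, with a longest shared stretch of 427.5 bp at the median.

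Few members lay beside a peak of another list. The nearest peak of another list lay 2896 bp away at the median (quartiles 1369.5 and 6595 bp), within 1 kb for 650 members (16.4%) and more than 10 kb away for 626 (15.8%). With no other peak allowed within 1 kb the rule kept 3323 regions, and with peaks merged across gaps of 1 kb it gave 3173. The members closest to being lost were an intronic region near Lrrc4 (chr6:28765662-28768457), 4 bp from such a peak, then regions near Aldh8a1 and Tgfbr2, 5 bp away, and one in Foxk1, 6 bp away. Just outside the rule were regions called in both 12-week lists and lost through 1 weak peak: one in Fmnl2 through a 2-week male peak with a −log10 q of 1.05, and others near Cd9, in Sptbn1 and near Fmo9 through P1 male peaks of 1.05, 1.06 and 1.07. A further 4017 regions were called in both 12-week lists and in exactly 1 other list, most often the 2-week female list (1280) or the E18.5 list (1151), and least often the P1 male list (286). Among regions called in exactly 2 lists, the 2-week pair had 266 and the P1 pair 754, while pairs of different ages had up to 1919 (E18.5 with 12-week female), then 962 (2-week female with 12-week female) and 876 (E18.5 with P1 female).

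The count of members changed with how much of each list was used. When each list was reduced to the same number of top peaks (43638), the rule chose 2155 regions, of which 1456 overlapped a member. When each was reduced to the same covered length (55.4 Mb), it chose 24, of which 7 overlapped members: those at Pcmtd1, Nptx2, Pik3c2g, Zfhx3, Btbd11, Ccser2 and Efhb. With a −log10 q of at least 5 asked of every list it chose 963, of which 3 overlapped members, since regions with weak early peaks then entered and most members left. Without the 12-week female list the rule, asked of the male list alone, gave 8110 regions, and without the 12-week male list it gave 16400.

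The 12-week-only regions lay mainly in introns and between genes. Only 247, or 6.22% (95% Wilson interval 5.51 to 7.01, counting error only), were within 1 kb of an annotated transcription start. The share was 37.1% in the other regions called in both 12-week lists, 62.1% in the 19521 regions called in all 7 lists and 15.7% in all union regions. By their middle base 57.4% of members were intronic, 32.0% intergenic, 1.86% in coding exons and 2.57% in other exons. The median distance to a protein-coding start was 27996 bp, against 13024 bp in the other regions called in both 12-week lists. Members had a median GC content of 47.3% in their central 300 bases, against 50.7%, and repeats took 16.6% of these windows on average, against 13.1%. A low promoter share was not special to these regions. It was 7.39% in the 2057 regions called in both 12-week and both 2-week lists and in no earlier list, 6.63% in the P1 pair and 5.64% in the 2-week pair. Those 2057 regions also had a median distance of 35673 bp, a median GC content of 46% and repeats of 16.2%. Distance, GC content and repeats were thus not special to the members either.

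Ordered by how many of the other 5 lists also called them, the regions of both 12-week lists formed a series in which the 12-week-only regions were one end. The promoter share was 6.22% with 0 other lists, then 8.14%, 8.97%, 12.6%, 15.2% and 62.1% with 5. The median width went from 1061 to 3160 bp in the same order. The share of windows with an NR5A motif went the other way, from 4.98% to 2.24%, with a nearly level 4.98%, 4.78% and 4.98% at 0, 1 and 2 other lists.

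**Figure D2:**
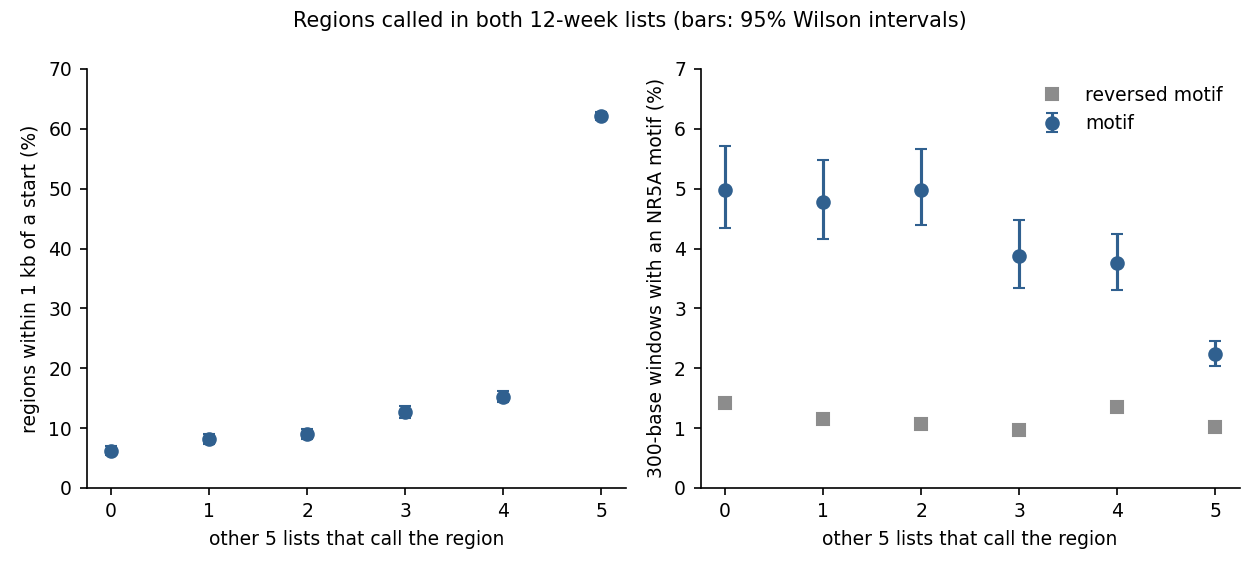
Left, the share of regions within 1 kb of a transcription start; right, the share of 300-base windows with an NR5A motif and with the reversed motif; both in percent, against the number of other lists (0 to 5) that call the region, with 95% Wilson intervals as bars. The promoter share rises to 62.1% at 5 lists, while the NR5A share lies at 4.98% at 0 lists and 2.24% at 5, above the reversed motif throughout.

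Sequence was not used to choose the members. Windows of 300 bases at the middle of the longest stretch covered by both lists were searched on both strands. The NR5A motif CAAGGTCA was in 198 of 3972 member windows, 4.98% (4.35 to 5.71), and its letters in reverse order, a control of the same composition, in 1.41%. In the other regions called in both 12-week lists the motif was in 3.25% (3.08 to 3.43), with the reversed letters in 1.08%, and in all union regions in 2.74%. It was in 5.49% of the regions called in both 12-week and both 2-week lists and no earlier list (4.59 to 6.56), so the share was not particular to the members. The gap was narrower more than 1 kb from a start, where the shares were 4.83% (4.19 to 5.57) in members and 3.96% (3.72 to 4.21) in the others, with intervals that overlapped slightly. The AP-1 motif TGANTCA was in 14.8% of member windows (reversed 8.99%) and in 10.7% of the others (reversed 6.82%). It was in 15.0% of the regions of the 12-week and 2-week lists alone. Away from starts it was in 14.8% (13.7 to 16.0) and 13.5% (13.1 to 13.9).

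Of the other 8 motifs, 2 that are common at promoters were scarcer in members. The cyclic AMP response element TGACGTCA was in 0.101% of member windows and 0.684% of the others, and the ETS motif CCGGAAGT in 0.478% and 1.63%. More than 1 kb from a start the cyclic AMP element was in 4 member windows, or 0.107% (0.0418 to 0.276). In the others it was in 0.328% (0.264 to 0.408), and these intervals overlapped only slightly. There it was in 0.525% (0.285 to 0.964) of the regions of the 12-week and 2-week lists alone and in 0.464% of all union regions. Away from starts ETS was in 0.456% of members and 0.599% of the others, with overlapping intervals. The GATA motif AGATAAG was in 5.26% and 3.71%, and its reversed letters were also more frequent in members (3.25% and 2.34%). Away from starts the motif was in 5.26% (4.59 to 6.03) and 4.63% (4.37 to 4.90), which overlapped. The glucocorticoid response element was in 0.755% and 0.754%, the macrophage-type motif of PU.1, GAGGAAGT, in 2.92% and 2.62%, and the TEAD motif ACATTCCA in 1.61% and 1.51%. The NFI motif (0.0504% and 0.0490%) and the CTCF motif were rare, the latter with 0 member windows. Some of these letters overlap each other, as AP-1 does with the cyclic AMP element in its outer bases. In windows of 200 bases at the middle of the shared stretch, which were not centred on a motif, NR5A was in 3.40% of members and 2.14% of the others, and AP-1 in 9.97% and 7.22%.

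The members that ranked highest in both lists were mostly far from a start. The first by its lower percentile was a region of 4853 bp in an intron of Btbd11 (chr10:85508118-85512970), with a −log10 q of 7.37 in females and 5.40 in males, at percentiles 79.7 and 79.2. It was followed by a region of 297 bp in an intron of Efhb (chr17:53403109-53403405; 6.78 and 6.09), and by intergenic regions near Pcmtd1 (8.22 and 4.91), Nptx2 (9.31 and 4.86) and Gfra2 (5.86 and 6.20). Nptx2 encodes a secreted pentraxin of neurons, and Gfra2 a receptor for the growth factor neurturin, whose start was 598306 bp away. Next came the promoter of Pik3c2g, an intergenic region near Ccser2 and introns of Auts2 and Zfhx3, which encodes a large homeodomain factor. The remaining 3 of the first 12 were near Mypn, in an intron beside Polr2j and in an intron of Cldn14. These 12 had percentiles between 72.2 and 83.6, and 1 of the 12 was a promoter.

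Of the 6 widest members, the first was the promoter of Srd5a2 (7360 bp), the second lay in Ryr3, which encodes a calcium release channel (6279 bp; −log10 q 2.70 and 1.49), and the third was upstream of Csf1 (chr3:107763322-107769589, 6268 bp, 2853 bp from the start). Csf1 encodes the growth factor that macrophages depend on, and its region had a −log10 q of 1.71 in females and 2.14 in males. The other 3 of the 6 widest were nearest to Mrps22, Afdn and Nampt, the last with 4.60 and 1.87. Only 118 members were wider than 3 kb and 11 wider than 5 kb.

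At promoters, the members fell at few genes. Of 20807 protein-coding genes on chromosomes 1 to 19, 96 (0.461%) had a 12-week-only region within 1 kb of a start. For 52 of these, no start of the gene was within 1 kb of a peak in any of the other 5 lists, and in the whole set 71 genes had starts near peaks of both 12-week lists alone. The 53 regions at such starts, which were looked at because of this pattern and so after their values were seen, had a −log10 q of 1.35 to 7.12 in females and 1.11 to 6.67 in males. The percentile was higher in the female list at 36 of the 53.

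Pik3c2g encodes the gamma isoform of class II phosphoinositide 3-kinase and is a marker of the X-zone. Its member (chr6:139735274-139737220, 1947 bp) had a −log10 q of 7.12 in the female list and 4.53 in the male list, with fold enrichments of 4.17 and 3.65. It was among the strongest members in both sexes, and the nearest peak of another list was 75047 bp away. The region covers 1 of the 5 GENCODE starts of the gene, one about 150 kb downstream of the first. Its shared bases hold 2 NR5A motifs, 126 and 689 bases before that start (position 139736895); the nearer one is in the sequence printed above. The 2 RefSeq promoter windows of the gene lie outside the member, and their 200 bases held none of the motifs searched. Over the gene and 20 kb to each side, peaks covered 3.29 kb at E18.5, 2.07 and 1.07 kb in P1 females and males, 3.05 and 2.18 kb at 2 weeks, and 8.88 and 3.74 kb at 12 weeks. The 12-week female list had 10 peaks there and the 12-week male list 3, against 4 and 5 in the 2-week lists, so the member was the addition that both adult lists shared.

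Srd5a2 encodes steroid 5-alpha reductase type 2, which turns testosterone into dihydrotestosterone and also reduces other steroids. Its promoter region (chr17:74041633-74048992) runs from 1.08 kb before the start to 6.28 kb into the gene. It had a −log10 q of 3.63 in 12-week females and 6.67 in 12-week males, the highest male value of any member, with fold enrichments of 3.38 and 4.41. The male peaks covered all 7360 bp and the female peaks 3123 bp. The second member in the gene (chr17:74021446-74024960, 3515 bp, intronic) had 1.32 and 1.51, with 815 bp covered in females and all 3515 bp in males. Over the gene and its flanks, peaks covered 0.367 kb at E18.5, 0 kb in both P1 lists and in 2-week females, 0.167 kb in 2-week males, 6.19 kb in the 12-week female list and 14.6 kb in the 12-week male list. The adult male list thus covered more of it than the adult female list although the male list is the shorter one.

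Plcb1 encodes phospholipase C beta 1, which acts below Gq-coupled receptors such as that for angiotensin II. It held the most members of any gene, 27 within its 689.2 kb (chr2:134786067-135475258), 25 of them classed as intronic and 0 at a start. Their widths were 758 to 4244 bp and their −log10 q values 1.29 to 4.66 in females and 1.12 to 2.59 in males, so each was modest and the number was what stood out. The strongest (chr2:135180549-135183549) had 4.66 and 2.59 and is printed above; it was chosen after its value was seen. The start of Plcb1 was called in all 7 lists. Over the gene and its flanks, peaks covered 3.04 kb at E18.5, 10.2 and 8.70 kb in P1 females and males, 33.4 and 29.6 kb at 2 weeks, and 118 and 99.1 kb at 12 weeks. The members came to 48.2 kb as merged regions of both 12-week lists, a width that each list alone covered only in part. In this locus peaks present at 2 weeks also covered more at 12 weeks.

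**Figure D3:**
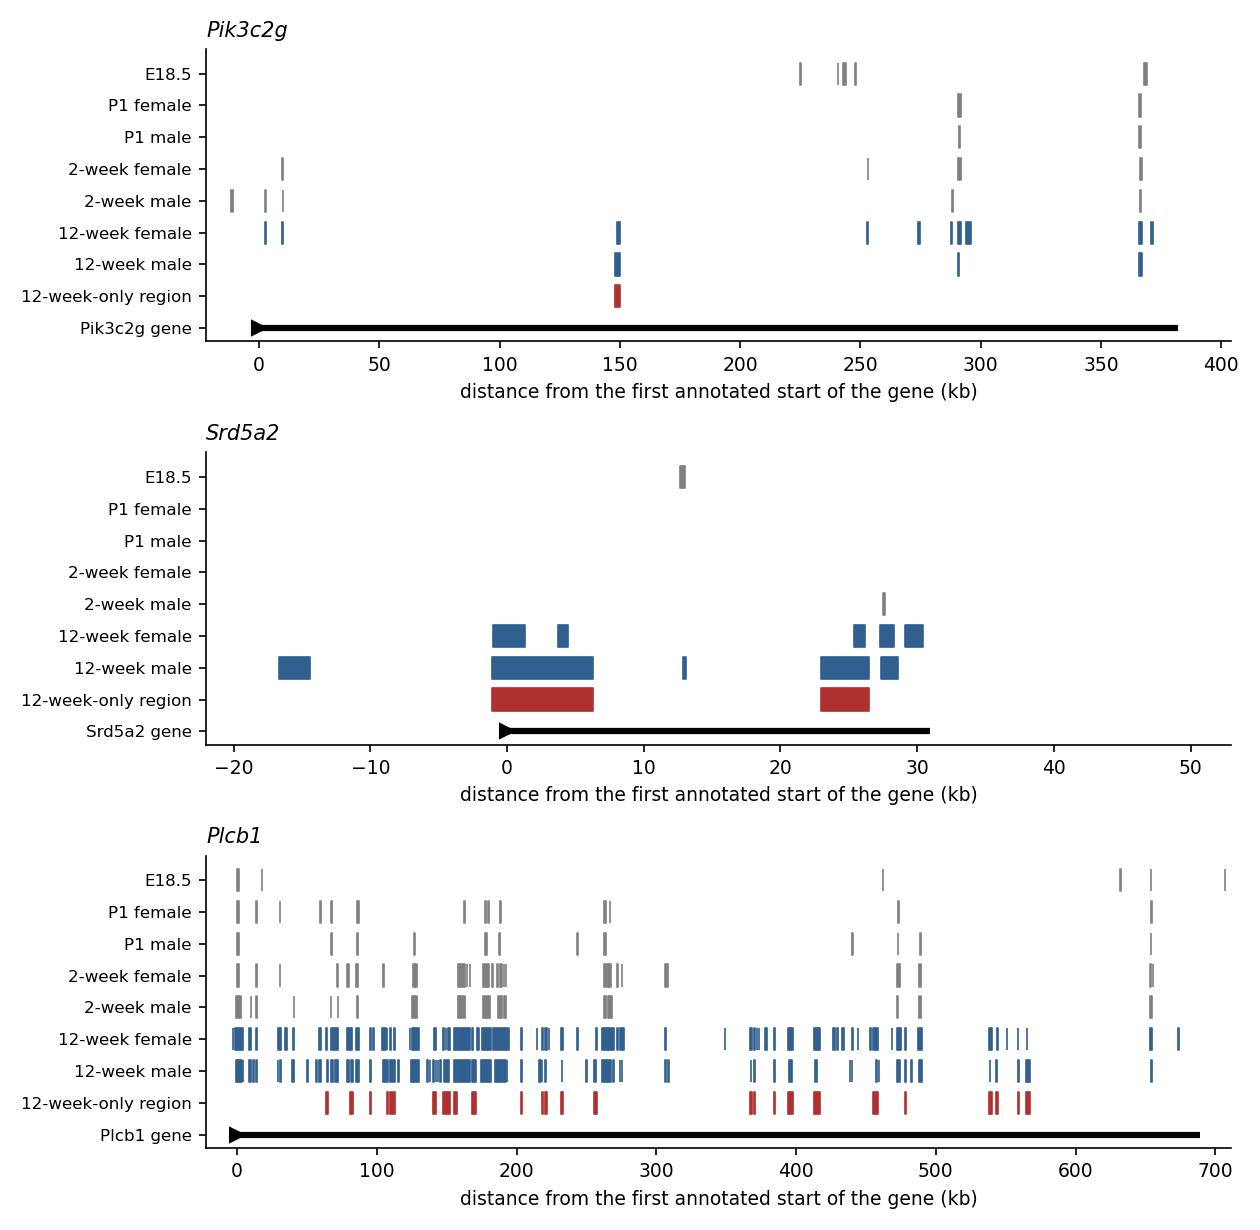
Peaks along Pik3c2g, Srd5a2 and Plcb1 in each of the 7 lists, by distance from the first annotated start of the gene in kb, with the 12-week-only regions in red and the gene as a black line with an arrow at its start. Pik3c2g has 1 member about 150 kb into the gene, Srd5a2 has 2 members and few earlier peaks, and the 27 members of Plcb1 lie along the gene among peaks of the 12-week lists.

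Some of the other promoters with peaks at 12 weeks alone belong to genes known from immune cells. They were picked by eye after their values were seen, and their share was not compared with that of other genes. C3ar1, the receptor for the complement fragment C3a, had a region of 2781 bp with a −log10 q of 3.19 in females and 2.41 in males. Itgax, the integrin CD11c of dendritic cells and some macrophages, had 2.86 and 2.32. Cysltr2, a leukotriene receptor, had 2.82 and 2.43, and Alox5ap, which is needed for leukotriene synthesis, had 3.17 and 2.001. The interferon-inducible genes Ifi213 (5.61 and 2.56) and Ifi206 (3.56 and 1.92) were also among the 53. So were the promoters of Cxcl10, Itgb2, Lcp2, Blnk, Ly86, Slamf8, Slamf9 and Zap70. These had 1.75 (Slamf8) to 3.62 (Itgb2) in females but only 1.11 (Slamf9) to 1.70 (Cxcl10) in males. Slamf9, Zap70 and Slamf8 lay at percentiles 2.15, 4.49 and 6.96 of the male list. In the list of 12 macrophage and immune genes, 0 had a member at a start. Starts of these 12 were called for 5 at E18.5, for 0 and 3 in P1 females and males, for 1 and 0 in 2-week females and males, for 10 in 12-week females and for 3 in 12-week males, so the 12-week male count equalled that of P1 males and was below E18.5. Of all 20807 protein-coding genes, starts were called for 14902 at E18.5, 12498 to 12878 at P1 and 2 weeks, 13599 in 12-week females and 12758 in 12-week males. The part of immune cells in these promoters was not tested.

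Promoters outside that group included Rasgrf1, a guanine nucleotide exchange factor for Ras, with a region of 2975 bp at 6.02 in females and 2.41 in males, and Slc52a3, a riboflavin transporter, with 4.21 and 3.69. Tdgf1, a co-receptor for Nodal, had 2.80 and 2.29. Adcy8, an adenylyl cyclase activated by calcium, was at percentile 28.8 in females and 37.7 in males, and Gdf2, which encodes the bone morphogenetic protein BMP9, at 20.3 and 40.9. Weaker still was Hoxb1, a homeobox gene, at 12.2 and 11.4.

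Most members stood alone. With members joined across gaps of up to 10 kb, 3395 were single and 577 fell into 274 clusters. Of these clusters 5 had 4 members: in Plcb1 (chr2:134926153-134943294), Meis2 (chr2:116027979-116043685), Etv6 (chr6:134058783-134079399), Slc22a21 (chr11:53947849-53959007) and Sesn1 (chr10:41827274-41839267). Sesn1 encodes a stress-induced inhibitor of mTORC1 signalling and Slc22a21 a carnitine transporter. The next was a cluster of 3 in Ttc7b. Across chromosomes the members made up 8.57% (chromosome 10) to 10.7% (chromosome 14) of the regions called in both 12-week lists.

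After Plcb1, the genes with most members in their bodies were Gm20388 (16), Kcnma1 (12), Meis2 (11), Fgfr2 (10), Etv6 (8), D430042O09Rik (7) and Prkch (7); 8.36% of all protein-coding genes had at least 1. Gm20388 and Fgfr2 have annotated models of 4435 and 2961 kb, with 0.361 and 0.338 members per 100 kb. Meis2, a homeodomain partner of HOX and PBX factors, had 5.43 per 100 kb, D430042O09Rik 4.19, Plcb1 3.92, Prkch 3.62, Etv6 3.41 and Kcnma1 1.66. Kcnma1 encodes the large-conductance calcium-activated potassium channel, Etv6 a repressor of the ETS family and Prkch protein kinase C eta. The highest medians among these genes were in D430042O09Rik, with a −log10 q of 3.19 in females and 2.76 in males.

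The covered length at these genes was set against that of the whole lists, since the 12-week lists cover more in all. From P1 to 12 weeks the length covered on chromosomes 1 to 19 was 2.23 times as large in females and 1.83 times in males. At Plcb1 the ratios were 11.6 and 11.4, at Kcnma1 7.73 and 12.5, at D430042O09Rik 9.47 and 10.98, and at Prkch 6.48 and 4.25. At Meis2 they were 3.84 and 3.38, at Etv6 2.74 and 2.31, at Fgfr2 2.73 and 2.45 and at Gm20388 2.33 and 1.99, closer to the lists as a whole. From 2 to 12 weeks the lists grew 1.70 times in females and 1.49 times in males, D430042O09Rik 6.40 and 6.15 times, Plcb1 3.54 and 3.35 times, Kcnma1 2.69 and 4.98 times, and Meis2 1.77 and 1.63 times. These genes were picked for their number of members, so that the ratios are a description.

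**Figure D4:**
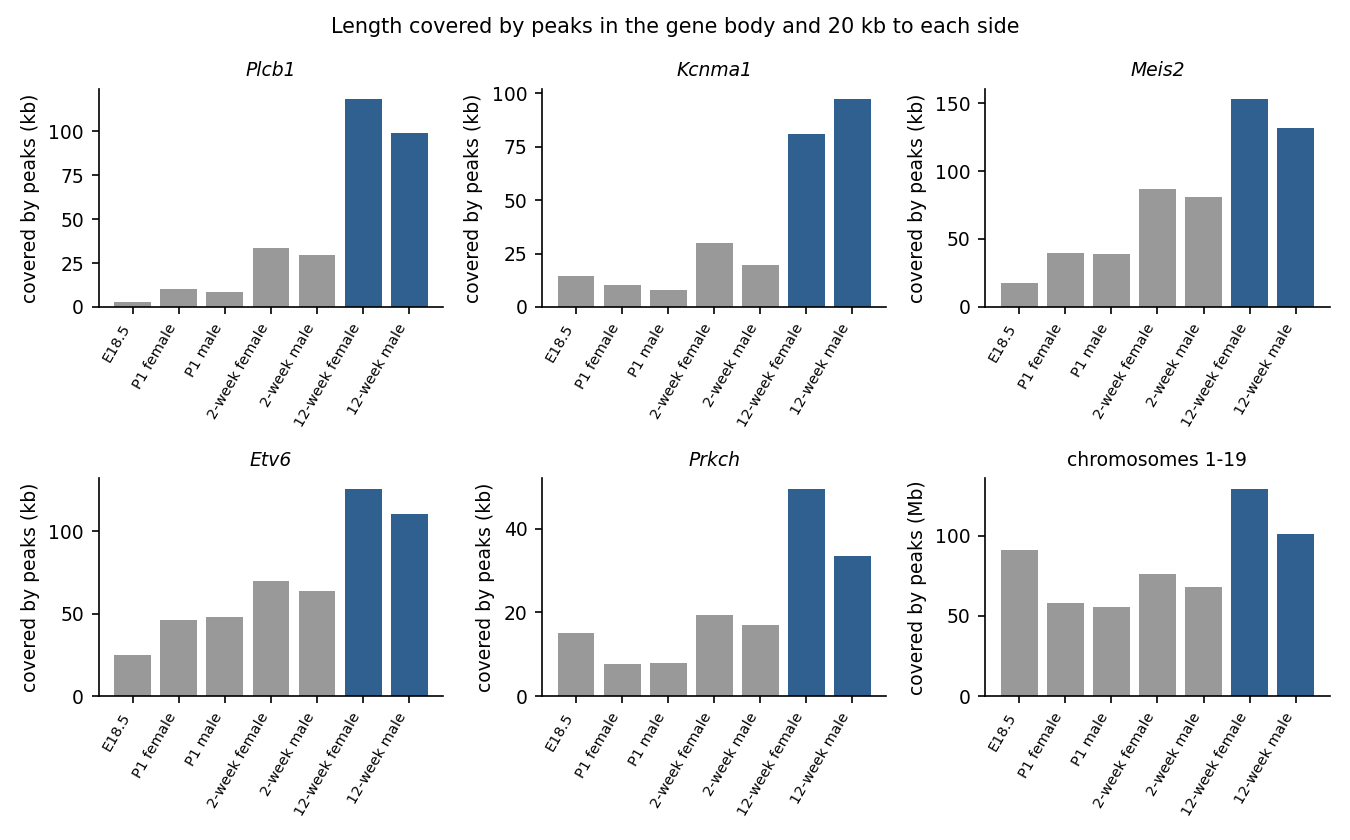
Length covered by peaks in each of the 7 lists (bars from 0; 12-week lists in blue), in kb over the gene body and 20 kb to each side for 5 genes, and in Mb over chromosomes 1 to 19. The 12-week bars are the highest at each of the 5 genes, by more at Plcb1 and Kcnma1 than at Meis2 and Etv6, and higher than the other lists genome-wide too.

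The E18.5 list had the most peaks (108336). At Gm20388 it covered 1037 kb, more than the 788.9 and 652.3 kb of the 12-week lists, and at D430042O09Rik 16.1 kb against 4.57 and 4.10 kb at P1. At Kcnma1 it covered 14.5 kb against 10.5 and 7.78 kb at P1, and at Prkch 15.0 kb against 7.64 and 7.88 kb. At Meis2 the order was 17.8 kb at E18.5, 39.7 and 38.9 kb at P1, 86.4 and 80.5 kb at 2 weeks, and 153 and 131 kb at 12 weeks. At Etv6 it was 25.1 kb, 46.0 and 47.9 kb, 69.9 and 63.9 kb, and 126 and 110 kb. Peaks covered more of each of the 8 genes with most members at each later postnatal age in both sexes. The whole lists rose too, from 58.1 and 55.4 Mb at P1 to 76.1 and 68.0 Mb at 2 weeks and 129 and 101 Mb at 12 weeks. All 8 genes had a start called in all 7 lists. Of all protein-coding genes, 56.6% had a start called in all 5 lists before 12 weeks.

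Genes of adrenal function were then looked up by list. A 12-week-only region lay in the body or within 20 kb of 3239 of 20807 protein-coding genes, 15.6%, and the counts below are read against that share. Of the 17 steroid-synthesis genes on these chromosomes 3 had one (17.6%, 6.19 to 41.0), near the background. The region 10261 bp from a start of Hsd3b1, which encodes 3-beta-hydroxysteroid dehydrogenase, had a −log10 q of 2.40 in females and 1.99 in males. The one near Cyp11b2, the aldosterone synthase gene, lay closer to another start and had 2.43 and 1.35. The one in an intron of Por, the electron donor of microsomal P450 enzymes, had 1.48 and 1.61. None of these genes had a member at a start, and their promoters were called early: 15 of 17 starts in P1 females and 16 of 17 at E18.5. Among all 20807 protein-coding genes, starts were called for 12498 in P1 females and 14902 at E18.5. Without the 12-week female list 11 genes of this list were counted, beside 25.7% of all genes, and without the 12-week male list 14, beside 42.4%. The count was 0 when each 12-week list had to cover at least 50% of the region, beside 9.67%. It stayed at 3 with the same number of top peaks, beside 9.82%.

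Genes of ACTH and cyclic AMP signalling had the highest share after the 4 X-zone genes, 7 of 15 (46.7%, 24.8 to 69.9), all within gene bodies. They were Prkaca, the catalytic subunit of protein kinase A, with 1.71 in females and 1.11 in males; Prkar1a and Prkar2b, regulatory subunits; Adcy3, an adenylyl cyclase; and the phosphodiesterases Pde4b, Pde8b and Pde10a, which break down cyclic nucleotides. The Pde4b region (chr4:102104490-102105358) was the strongest, at 3.34 and 2.81. Pde8b had 2, the printed one (chr13:95039575-95040454) at 2.55 and 2.57 and another at 2.64 and 1.11. Prkar1a also had 2, at 1.98 and 1.31 and at 1.52 and 1.11, which are low in both lists. The genes of this list have a median length of 71.9 kb, against 17.6 kb for all protein-coding genes, and longer genes have more room for a region; the part of length was not tested. With the same number of top peaks in each list the count fell to 2 of 15, beside 9.82% of all genes.

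Cholesterol genes had 5 of 15 (33.3%, 15.2 to 58.3). The intronic region of Srebf2, the master regulator of cholesterol synthesis, had a −log10 q of 2.24 in females and 1.68 in males. The region near Fdps, which makes farnesyl diphosphate, was 4161 bp wide at 2.41 and 1.33. The regions counted for Fdft1 lay in Ctsb and that counted for Lipe lay 945 bp from a start of Cxcl17, so these 2 genes are listed by distance alone.

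In the zona glomerulosa and capsule list, 5 of 14 genes had a member (35.7%, 16.3 to 61.2). Their list has a median gene length of 45.8 kb, against 17.6 kb for all protein-coding genes, and the part of length was not tested. Agtr1a, the angiotensin II receptor, had 2, at 2.32 and 1.93 and at 1.58 and 2.27. Shh, the capsule-facing hedgehog ligand of cortical progenitors, had one beside the gene (chr5:28455535-28456643), 10613 bp from its start, at 2.62 and 2.11. Znrf3, an inhibitor of WNT signalling, had 4, of which the one ranked first (chr11:5369151-5369526) had 3.61 and 1.997. Cacna1h, a calcium channel of aldosterone-producing cells, had 2, one within the gene (chr17:25395453-25397580) at 1.56 in females and 1.31 in males and one of 3161 bp between genes, 15703 bp from its start, at 5.07 and 1.25, and Lef1, a transcription factor of the WNT pathway, one at 1.95 and 1.31. Of the 4 X-zone genes, Pik3c2g and Thrb had one; that of Thrb, a thyroid hormone receptor, had 1.91 and 1.55.

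Clock genes had 6 of 15 (40.0%, 19.8 to 64.3). Their median length was 41.0 kb, against 17.6 kb for all protein-coding genes, and the part of length was not tested. Rora, a nuclear receptor that activates Arntl, had 6 intronic members, the strongest at 3.57 and 2.03. Cry2, a repressor of the clock, had 2 members. The one within the gene (chr2:92408297-92409256), at a start annotated for D930015M05Rik, had 4.26 and 2.13 and lay 612 bp from a peak of another list, and the one outside had 4.13 and 2.04 and lay 40 bp from such a peak. Tef and Hlf, which encode PAR bZIP factors, had one each at 2.70 and 1.87 and at 1.92 and 1.23, and Arntl and Npas2 had weak ones at 1.57 and 1.17 and at 1.29 and 1.32. With the same number of top peaks 3 of these 15 genes were counted, as were 2 of the cholesterol genes and 4 of the zona glomerulosa genes, beside 9.82% of all genes. Without the 12-week male list the counts were 11 for the cyclic AMP list, 8 for cholesterol, 13 for zona glomerulosa and 11 for the clock, beside 42.4% of all genes. The time of day of tissue collection is not given in the sources used here. Of 11 glucocorticoid-responsive genes, Dusp1, Errfi1 and Sgk1 had one (27.3%, 9.75 to 56.6). This count was 0 with the same number of top peaks, beside 9.82% of all genes, and 5 without the E18.5 list, beside 20.2%. It was 6 without the 12-week female list, beside 25.7%, and 7 without the 12-week male list, beside 42.4%.

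For lists of other cell types the intervals included the background of 15.6%, also for the endothelial list at 28.6% (11.7 to 54.7). They gave 1 of 15 chromaffin genes (Slc18a2, the vesicular monoamine transporter, with the strongest at 3.03 and 1.61), 4 of 14 endothelial genes (Emcn, Erg, Esam and Flt1), 1 of 12 macrophage and immune genes (H2-Aa, at 3.73 and 1.66), 1 of 8 fat-cell genes (Pparg), and 0 of 10 fibroblast and smooth-muscle, 0 of 8 liver and 0 of 8 kidney genes. Without the 12-week male list the counts were 13 of 14 for endothelial, 8 of 12 for macrophage and immune, 4 of 15 for chromaffin, 3 of 10 for fibroblast and smooth-muscle and 2 of 8 for fat-cell genes, beside 42.4% of all genes; without the 12-week female list they were 6, 3, 1, 1 and 2, beside 25.7%. Without the E18.5 list 6 endothelial and 3 macrophage and immune genes were counted, beside 20.2%. Of 15 fetal and growth genes, Hmga1 and Igf1r had one. Starts of chromaffin genes were called for 15 of 15 genes at E18.5, 8 and 12 in P1 females and males and 13 in each 2-week list. At 12 weeks they were called for 13 in females and 6 in males. Of all 20807 protein-coding genes, starts were called for 14902 at E18.5, 12498 to 12878 at P1 and 2 weeks, and 13599 and 12758 in 12-week females and males. The 2 lists that define the members thus differed in this cell type's promoters, and its part in the members was not tested.

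**Figure D5:**
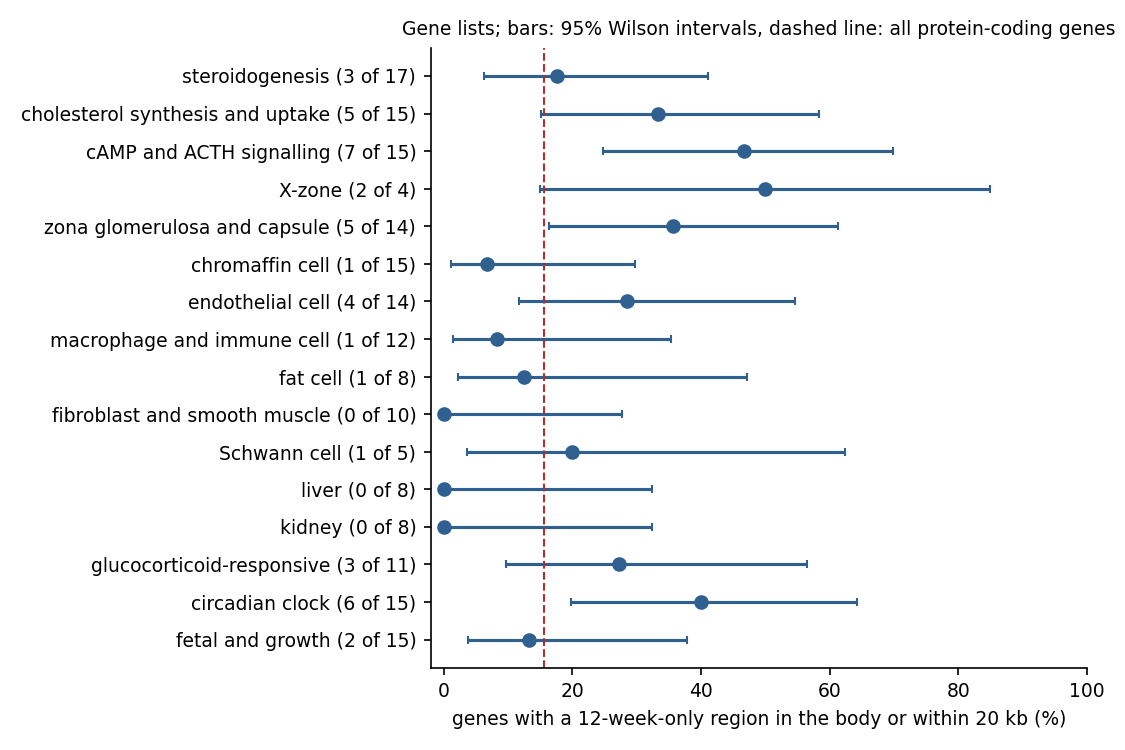
Share of genes in each of the 16 lists with a 12-week-only region in the body or within 20 kb, in percent, with 95% Wilson intervals as bars and the share of all protein-coding genes (15.6%) as a dashed line. The intervals of the cyclic AMP, zona glomerulosa and clock lists lie above the dashed line and those of the other lists include it. Genes of these lists have median lengths of 71.9, 45.8 and 41.0 kb, against 17.6 kb for all protein-coding genes, and the part of length was not tested.

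Members away from starts lay beside genes whose promoters already carried peaks at younger ages. For 78.2% (76.8 to 79.5) of the 3725 such members, a start of the nearest protein-coding gene was called in all 5 other lists, and for 7.60% in none of them. The other regions called in both 12-week lists and away from starts gave 81.2% and 6.96%, and all protein-coding genes 56.6% and 26.1%. The members were thus close to the other distal adult regions in this respect, and both sets stood beside genes with early promoter calls more often than genes in general.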

How the data were processed

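H3K27ac ChIP-seq peaks of 7 libraries were used. The input library from 12-week females was not analysed here. Per the submitters' processing notes the tools were CASAVA 1.8.2, Bowtie2 2.3.4.3, MACS2 2.1.1 and deepTools 3.2.2.0, on mm10; the caller's control and cutoff are not given in the sources used here. The authors deposited 1 broad peak list for each library, with a fold enrichment (a ratio to the caller's background) and −log10 p and −log10 q for each peak, used here only within a list. Of the peaks on chromosomes 1 to 19, 0 ended past the chromosome in GRCm38.

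Peaks were merged with Python 3.11.15, numpy 2.4.6 and pandas 2.3.3, and the counts of regions were the same with bedtools 2.31.1. The steps were tested on simulated data. A q value of a region is the highest of its peaks in that list. Promoter means within 1 kb of a GENCODE M21 basic start; other regions were classed by their middle base. Sequences were read from the RefSeq genome of GRCm38.p6 with pysam 0.24.0. Motifs were exact letter matches; the glucocorticoid, NFI and CTCF motifs are given by name. Wilson intervals (95%, scipy 1.17.1) cover counting error only. There was 1 library for each age and sex, and nothing was tested between ages.

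The members, the gene lists and the naming rule were chosen with earlier results of these data known. The rule named the 12 members with the highest lower percentile, the 6 widest, the 8 genes with most members, the 6 clusters with most members, up to 4 members near each gene of a list (as first written, 4 for each list; more were named here), and 4 regions on each side of the threshold. The promoters called at 12 weeks alone were added after values were seen, as were the settings without a 12-week list. Some named results are not reported here.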

Additional observations from a re-analysis of the deposited data

How the results depend on the processing

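The number of 12-week-only regions (3972) fell to 963 when every list had to reach a −log10 q of 5, to 3 when this was asked of the 12-week lists only, and came to 2155 with the same number of top peaks, 24 with the same covered length and 2257 when each 12-week list had to cover at least 50% of the region. Leaving out 1 list gave 4260 to 16400. The promoter share (6.22%) was 23.6%, 0%, 7.80% and 12.5% under the first 4 of these, 4.83% with a window of 0.5 kb, and 5.12% to 7.69% without 1 list. The NR5A share (4.98%) was 0% and 4.17% with 3 and 24 regions, 8.64% in windows of 500 bases, and 3.97% to 5.18% without 1 list. Of 185 list genes, 41 had a member near; this was 15, 0, 1 and 27 with −log10 q of at least 5 in all lists, in the 12-week lists only, with the same covered length and with 50% coverage, and 43 to 105 without 1 list. Of 83 named members 3, 3, 37, 7 and 45 were kept under the 5 settings in the order first given. Of 256 counts for single lists, 156 were within 1.5 times the reported count, 46 were higher and 54 lower. No paired analysis was possible because the values come from no test, and the labels give no replicate numbers shared between groups. Depth is unknown, so a weak region missing from a list may lie under what that list could call.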
